A study of Homo sapiens with 6 samples.

Results

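The 10 genes described here encode the Rel and NF-kappaB transcription factor subunits (NFKB1, NFKB2, RELA, RELB and REL), 3 IkappaB-family regulators (NFKBIA, NFKBIE and NFKBIZ) and 2 ubiquitin-system regulators of the pathway (TNFAIP3 and BIRC3). They were chosen by gene symbol, and all 10 were found among the 19402 genes of the count table. The RNA, selected for poly(A) tails and sequenced, came from CFPAC1, an established human line of pancreatic ductal adenocarcinoma. The groups were 3 pools of clones labelled IRF1-KO, infected with a lentiCRIPSv2 plasmid (as the labels spell it) that expressed wild-type Cas9 and a guide RNA targeting IRF1, and 3 pools of WT clones, isolated by dilution after infection with lentiCRIPSv2 and labelled as the control for IRF1-KO. Infection with the vector and passage through single clones are thus common to both groups, and the sample labels name no interferon treatment. How many clones made up a pool, and whether pools were handled on separate days, was not given in the sources used here, and a p-value therefore measures no more than the spread among the 6 pools.

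NF-kappaB dimers are held in the cytoplasm by IkappaB proteins until a receptor of the TNF, interleukin-1 or Toll-like family activates the IkappaB kinase complex, which marks the inhibitor for destruction and frees the dimer to enter the nucleus. Several regulators of the pathway are themselves transcribed by NF-kappaB, among them IkappaBalpha (NFKBIA), A20 (TNFAIP3), cIAP2 (BIRC3) and the p100 precursor (NFKB2), so that their transcripts are used as readouts of pathway activity. Pancreatic cancer cells often hold part of the pathway active without added stimulus. IRF1, the edited gene, is an interferon-induced transcription factor and is itself a known NF-kappaB target.

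Promoter sequences are shown first, because 7 of the 8 genes found in the RefSeq promoter table (build GRCh38.p14) carry kappaB letters close to a transcription start. The letters searched were GGG and TTTCC with any 2 bases between them, on both strands, in the 250 bases before each annotated start. They stood before at least 1 start of BIRC3, NFKB1, NFKB2, NFKBIA, NFKBIZ, REL and TNFAIP3, in 8 of the 13 windows of the 8 genes, against 1.73% of all 35116 windows. By gene the share was 2.12% of 27305 genes. RELA had no match in its 2 windows. The IRF letters, GAAA repeated after any 2 bases, were found in 1 of the 13 windows, 237 bases before the upstream start of RELA, against 3.02% of all windows, and the 2 motifs overlapped nowhere in these windows. RELB and NFKBIE were not matched to the table. A match describes letters and does not show binding. The stretches below are those of the 3 feedback genes with the most negative group differences and of NFKB1, cut off at the first exon of the counted annotation; capitals mark the kappaB letters, which read GGAAA, 2 bases and CCC where the motif lies on the other strand.
NFKBIA, chr14:35404750-35404999, minus strand: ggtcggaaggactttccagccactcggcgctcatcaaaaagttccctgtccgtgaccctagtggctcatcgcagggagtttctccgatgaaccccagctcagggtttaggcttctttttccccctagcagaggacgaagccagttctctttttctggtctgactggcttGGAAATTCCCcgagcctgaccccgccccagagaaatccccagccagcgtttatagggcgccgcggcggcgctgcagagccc
TNFAIP3, chr6:137867009-137867213, plus strand: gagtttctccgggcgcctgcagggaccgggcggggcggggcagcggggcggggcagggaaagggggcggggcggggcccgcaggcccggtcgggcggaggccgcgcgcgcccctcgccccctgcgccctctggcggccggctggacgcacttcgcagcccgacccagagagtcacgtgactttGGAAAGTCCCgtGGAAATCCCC
BIRC3, chr11:102317234-102317449, plus strand: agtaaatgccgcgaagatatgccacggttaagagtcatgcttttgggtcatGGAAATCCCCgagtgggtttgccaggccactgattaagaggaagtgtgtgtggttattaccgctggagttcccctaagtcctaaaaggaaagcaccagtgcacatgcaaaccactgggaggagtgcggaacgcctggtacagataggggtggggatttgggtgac
NFKB1, chr4:102501109-102501330, plus strand: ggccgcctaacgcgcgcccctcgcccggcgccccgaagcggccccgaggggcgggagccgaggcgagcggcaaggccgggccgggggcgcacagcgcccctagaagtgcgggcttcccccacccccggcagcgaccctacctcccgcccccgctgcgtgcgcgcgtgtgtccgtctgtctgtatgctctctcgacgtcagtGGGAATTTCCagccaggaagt
In these stretches TNFAIP3 held 2 matches, starting 67 and 55 bases before its start site, whereas NFKBIA, BIRC3 and NFKB1 held 1 each, at 81, 199 and 49 bases.

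**Figure D1:**
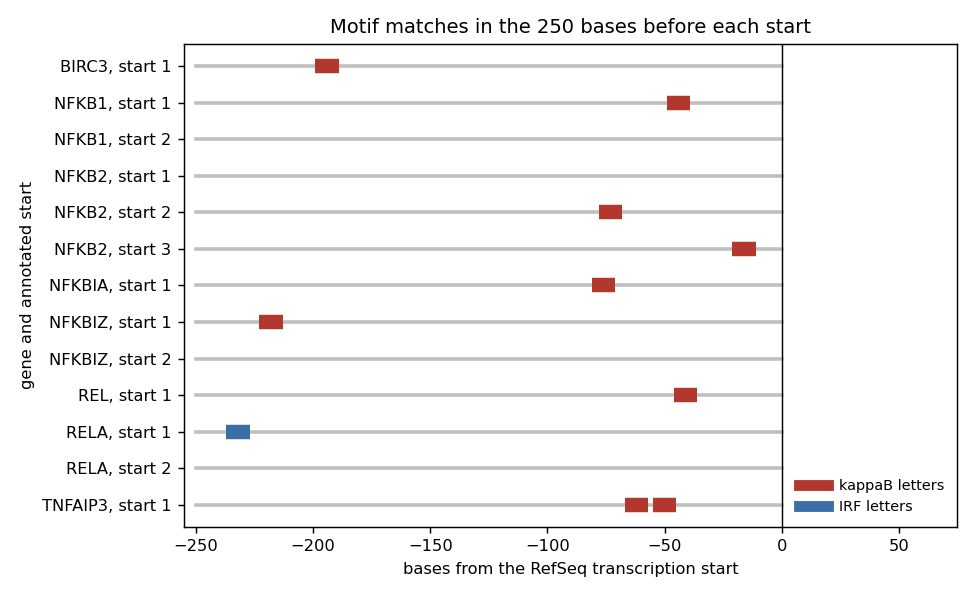
Position of motif matches in the 250 bases before each RefSeq start of the 8 genes in the promoter table. The x axis is the distance in bases from the start, each row is 1 annotated start, red blocks are kappaB letters and the blue block the IRF letters. TNFAIP3 alone among these 13 windows has 2 kappaB matches, and both windows of RELA have none.

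Libraries held between 16413682 and 28258075 counts, and 13388 genes were counted deeply enough to be tested. Each of the 10 genes was tested; the lowest count of any of them in a library was 193. The edited gene did not have fewer transcripts in IRF1-KO libraries. IRF1 had 117, 123 and 132 CPM (counts relative to library size, scaled by TMM factors) in IRF1-KO replicates 1 to 3, against 87.3, 91.3 and 82.6 CPM in WT replicates 1 to 3 (log2 fold change 0.51 ± 0.10, SE; edgeR quasi-likelihood with Benjamini-Hochberg adjustment, adjusted p = 0.135, and 0.00105 with DESeq2). An edit that alters the reading frame need not change the number of transcripts. The knockout is therefore not checked by these counts, and every direction given rests on the label IRF1-KO. Summed ductal epithelial markers lay between 5043 and 7053 CPM in IRF1-KO and between 4396 and 7576 CPM in WT, although CFTR did not exceed 0.644 CPM. Single markers were less even: WT replicate 3 was the lowest library for KRT7, KRT8, KRT18, EPCAM and CDH1. For CDH1 it had 106 CPM, against 243 to 489 CPM in the other libraries. KRT19, MUC1, SOX9 and CFTR were lowest in an IRF1-KO library. Summed leukocyte markers spanned 142 to 180 CPM in IRF1-KO and 164 to 210 CPM in WT. Most of that sum was CD68 (126 to 182 CPM over the 6 libraries) and LYZ (13.3 to 74.97 CPM), while 4 of the 7 markers stayed under 1 CPM, with PTPRC at no more than 0.122 CPM and TYROBP at 0 in every library. Summed fibroblast markers spanned 35.7 to 77.5 CPM in IRF1-KO and 31.8 to 50.01 CPM in WT. Summed endothelial markers spanned 8.88 to 11.1 CPM in IRF1-KO and 5.38 to 7.67 CPM in WT, without overlap. KDR (5.45 to 6.52 CPM in IRF1-KO and 3.81 to 4.18 in WT) and TIE1 (1.80 to 2.99 and 0.0544 to 0.697) did not overlap either. Of all tested genes 8.03% were higher in every IRF1-KO than in every WT library. PECAM1 was highest in WT replicate 3 at 2.67 CPM, and CDH5 and VWF did not exceed 0.283 and 0.425 CPM. The part of these transcripts in the results was not tested.

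The regulators NFKBIZ, NFKBIA and BIRC3 were the most abundant of the 10 transcripts. On a per-length scale (TPM, a share of all transcripts, from the exon lengths in the file, as the mean of all 6 libraries ± SD), NFKBIZ stood highest at 112 ± 15.2 TPM, followed by NFKBIA at 108 ± 24.5 and BIRC3 at 84.0 ± 28.1 TPM. RELA was the most abundant subunit at 58.8 ± 5.35 TPM, ahead of NFKB2 at 52.0 ± 13.2 and NFKB1 at 43.9 ± 5.46 TPM. TNFAIP3 stood at 43.1 ± 14.3, NFKBIE at 27.9 ± 3.68, RELB at 17.8 ± 4.03 and REL at 4.87 ± 0.623 TPM. Neighbours in this order were often indistinguishable: NFKBIZ exceeded NFKBIA in 4 of 6 libraries, RELA exceeded NFKB2 in 4 and NFKB1 exceeded TNFAIP3 in 3. BIRC3 exceeded RELA, NFKB2 exceeded NFKB1, and TNFAIP3 exceeded NFKBIE in 5 of 6. Only NFKBIA over BIRC3, NFKBIE over RELB and RELB over REL held in all 6 libraries. The level of REL is uncertain, since its 13170 counted bases include 5702 (43.3%) that a non-coding RNA on the same strand shares, and a long annotated exon length lowers a per-length value.

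None of the 10 genes passed an adjusted p of 0.05 between IRF1-KO and WT libraries (edgeR quasi-likelihood, Benjamini-Hochberg over all tested genes). Of all 13388 genes 0.127% passed, 0.112% lower and 0.0149% higher in IRF1-KO. DESeq2 and limma-voom also called none of the 10, where they called 2.53% and 0.134% of all genes. At an unadjusted p of 0.05 (edgeR quasi-likelihood), TNFAIP3 and NFKB1 were lower and none was higher, 2 of 10. Of all tested genes 9.14% were under 0.05 in either direction, 3.75% lower and 5.39% higher. DESeq2 also placed NFKBIA and BIRC3 under 0.05 (unadjusted p = 0.046 and 0.031), whereas limma-voom did not (0.051 for both). The share of all genes under an unadjusted 0.05 is not given for these 2 methods. With an offset for GC content, TNFAIP3 and RELB were under 0.05 and NFKB1 was not (unadjusted p = 0.048, 0.028 and 0.098, edgeR quasi-likelihood). The log2 fold change was negative for 8 of the 10, with a median of −0.24, against 53.3% negative and a median of −0.02 over all tested genes. For 8 of the 10 genes the 95% interval of the log2 fold change excluded a 2-fold decrease, and for none did it reach a 2-fold increase. In bulk RNA, fewer cells with a transcript and less of it per cell cannot be told apart.

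Among the subunits, NFKB1 was the one whose groups did not overlap. NFKB1 (ENSG00000109320.12, GRCh38 chromosome 4, 102501331 to 102617302, plus strand), which encodes the p105 precursor of p50, had 71.6, 66.7 and 59.6 CPM in IRF1-KO replicates 1 to 3, against 75.3, 80.1 and 85.7 CPM in WT replicates 1 to 3. Every IRF1-KO library thus lay below every WT library, a separation that TNFAIP3 shared and that 6.75% of all tested genes showed. After removal of each library's trend along GC content, neither gene kept the separation. For NFKB1, IRF1-KO replicate 1 then lay at 0.0095 log2 CPM from the gene's mean, against −0.0030 for WT replicate 1. None of the 10 genes had its 3 IRF1-KO libraries above the highest WT library, against 8.03% of all tested genes. The means were 66.0 ± 6.05 CPM in IRF1-KO and 80.4 ± 5.20 CPM in WT (SD, n = 3 each), with a log2 fold change of −0.29 ± 0.11 (SE; 95% interval −0.55 to −0.02) and an adjusted p of 0.513 (edgeR quasi-likelihood).

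RELA, the p65 subunit that carries the main transactivation domain of the canonical dimer, showed almost the same level in both groups. It had 77.4, 96.8 and 81.6 CPM in IRF1-KO replicates 1 to 3, against 77.8, 82.5 and 88.2 CPM in WT replicates 1 to 3. The groups overlapped, and the 95% interval of its log2 fold change was −0.24 to 0.32 around 0.04. REL, encoding c-Rel, had 17.8, 13.8 and 14.5 CPM in IRF1-KO replicates 1 to 3, against 19.2, 18.7 and 17.0 CPM in WT replicates 1 to 3. IRF1-KO replicates 2 and 3 lay below all WT libraries and replicate 1 within their range, with a log2 fold change of −0.26 ± 0.15 (SE; edgeR quasi-likelihood adjusted p = 0.704).

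The subunits of the non-canonical branch did not separate by group. NFKB2, whose p100 product is processed to p52, had 44.8, 85.5 and 46.7 CPM in IRF1-KO replicates 1 to 3, against 61.1, 73.1 and 74.3 CPM in WT replicates 1 to 3. IRF1-KO replicates 1 and 3 were the lowest of the 6 libraries and replicate 2 was the highest, and the log2 fold change of −0.23 ± 0.25 (SE) became −0.60 with IRF1-KO replicate 2 left out, −0.05 with replicate 1 left out and −0.09 with replicate 3 left out. RELB, the partner of p52, had 11.8, 17.3 and 11.4 CPM in IRF1-KO replicates 1 to 3, against 12.5, 12.6 and 19.0 CPM in WT replicates 1 to 3. One library in each group stood above the others, and the log2 fold change was −0.12 ± 0.24 (SE), between −0.35 with IRF1-KO replicate 2 left out and 0.13 with WT replicate 3 left out. Both genes have GC-rich transcripts (62.4% for NFKB2 and 65.4% for RELB), and libraries differed along GC content: the median deviation of the 477 tested genes above 65% GC was 0.10, 0.46 and 0.31 log2 CPM in IRF1-KO replicates 1 to 3 and −0.59, −0.13 and −0.10 in WT replicates 1 to 3. With an offset for GC content the log2 fold changes were −0.45 for NFKB2 (adjusted p = 0.651) and −0.55 for RELB (adjusted p = 0.574, both edgeR quasi-likelihood).

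Of the IkappaB proteins, NFKBIA had the most negative difference. NFKBIA (ENSG00000100906.10, chromosome 14, 35401511 to 35404749, minus strand) encodes IkappaBalpha, the rapidly resynthesised inhibitor that ends a round of NF-kappaB activity. It had 58.8, 71.3 and 40.9 CPM in IRF1-KO replicates 1 to 3, against 77.4, 69.2 and 86.5 CPM in WT replicates 1 to 3. IRF1-KO replicates 1 and 3 lay below all WT libraries, whereas replicate 2 lay within their range. The means were 57.0 ± 15.3 CPM in IRF1-KO and 77.7 ± 8.67 CPM in WT (SD, n = 3 each), a log2 fold change of −0.45 ± 0.20 (SE; 95% interval −0.92 to 0.02; edgeR quasi-likelihood adjusted p = 0.574). Without IRF1-KO replicate 3 it was −0.26.

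NFKBIE and NFKBIZ differed less. NFKBIE, encoding IkappaBepsilon, had 15.3, 22.8 and 19.0 CPM in IRF1-KO replicates 1 to 3, against 20.4, 18.4 and 17.4 CPM in WT replicates 1 to 3. Its IRF1-KO libraries spanned the whole WT range, with a log2 fold change of 0.03 ± 0.17 (SE) that turned to −0.11 with the GC offset. NFKBIZ, which encodes the nuclear cofactor IkappaBzeta, had 154, 189 and 138 CPM in IRF1-KO replicates 1 to 3, against 169, 187 and 202 CPM in WT replicates 1 to 3. IRF1-KO replicates 1 and 3 were below the WT libraries and replicate 2 was not, and the log2 fold change was −0.21 ± 0.14 (SE). Leaving out IRF1-KO replicate 2 gave −0.35, leaving out IRF1-KO replicate 3 gave −0.12 and leaving out WT replicate 3 gave −0.13.

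The ubiquitin-system regulators showed the most negative values of the 10 genes. TNFAIP3 (ENSG00000118503.15, chromosome 6, 137867214 to 137883312, plus strand) encodes A20, which removes and adds ubiquitin chains on RIPK1 and other signalling proteins to end signalling from TNF and Toll-like receptors. It had 44.0, 58.3 and 26.9 CPM in IRF1-KO replicates 1 to 3, against 82.7, 69.9 and 59.6 CPM in WT replicates 1 to 3. The groups did not overlap, but IRF1-KO replicate 2 lay just under WT replicate 3. After removal of each library's GC trend, IRF1-KO replicate 2 (0.162 log2 CPM from the gene's mean) lay just above WT replicate 3 (0.147). The means were 43.1 ± 15.7 CPM in IRF1-KO and 70.7 ± 11.6 CPM in WT (SD, n = 3 each; log2 fold change −0.72 ± 0.27, SE; 95% interval −1.35 to −0.08; edgeR quasi-likelihood adjusted p = 0.486). Leaving out IRF1-KO replicate 2 gave a log2 fold change of −1.0, and leaving out replicate 3 gave −0.47.

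BIRC3 (ENSG00000023445.14, chromosome 11, 102317450 to 102339403, plus strand) encodes cIAP2, a ubiquitin ligase of TNF receptor complexes that promotes canonical signalling and restrains the NF-kappaB-inducing kinase of the non-canonical branch. It had 135, 181 and 74.05 CPM in IRF1-KO replicates 1 to 3, against 167, 205 and 232 CPM in WT replicates 1 to 3. IRF1-KO replicates 1 and 3 lay below all WT libraries and replicate 2 within their range. The means were 130 ± 53.5 CPM in IRF1-KO and 201 ± 32.7 CPM in WT (SD, n = 3 each), and the log2 fold change was −0.63 ± 0.31 (SE; 95% interval −1.35 to 0.09; edgeR quasi-likelihood adjusted p = 0.616). Leaving out IRF1-KO replicate 2 gave −0.95, and leaving out replicate 3 gave −0.35.

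**Figure D2:**
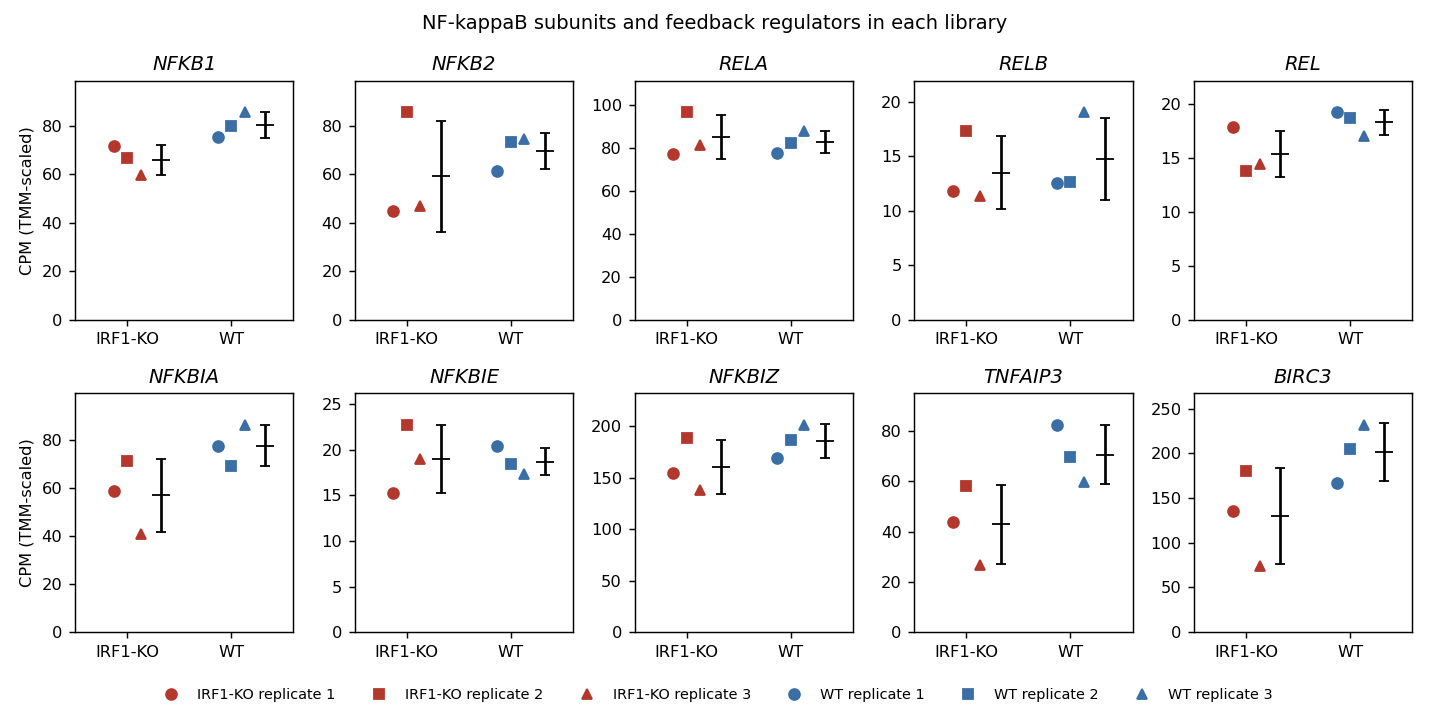
CPM of the 10 genes in each library, IRF1-KO on the left (red) and WT on the right (blue), with 1 marker shape per replicate number and, beside the points, the mean ± SD (n = 3). NFKB1 and TNFAIP3 are the panels in which every IRF1-KO library lies below every WT library; in the TNFAIP3 and BIRC3 panels IRF1-KO replicate 3 stands lowest, at 26.9 and 74.05 CPM.

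**Figure D3:**
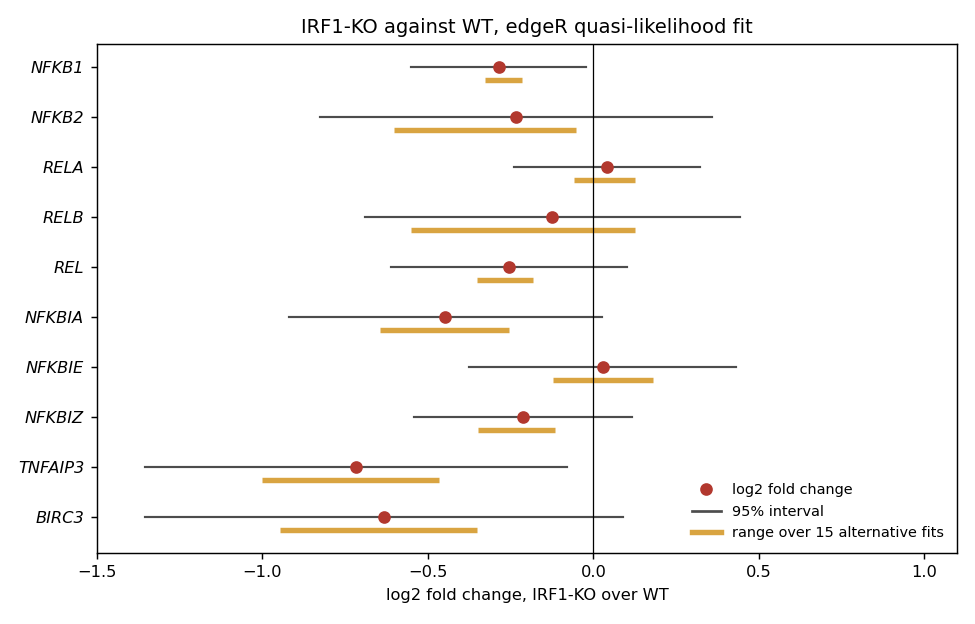
Log2 fold change of each gene, IRF1-KO over WT, with its 95% interval (black line) and the range of values over 15 alternative fits (yellow line). TNFAIP3 at −0.72 and BIRC3 at −0.63 are farthest from 0, and the intervals of TNFAIP3 and NFKB1 alone leave out 0 before adjustment.

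BIRC3, TNFAIP3, NFKB2 and NFKBIA varied more among IRF1-KO libraries than most genes did. The distance between the highest and the lowest IRF1-KO library was 1.29 log2 CPM for BIRC3, 1.12 for TNFAIP3, 0.93 for NFKB2 and 0.80 for NFKBIA. Of the 10996 tested genes with a mean of at least 5 CPM, 2.45% had a larger distance than BIRC3, 3.72% than TNFAIP3, 5.60% than NFKB2 and 8.33% than NFKBIA. Among WT libraries the same genes spanned 0.48, 0.47, 0.28 and 0.32 log2 CPM, and 33.03%, 33.5%, 62.0% and 54.8% of those genes had a larger distance. The median over the 10 genes was 0.59 among IRF1-KO libraries and 0.27 among WT libraries, against 0.31 and 0.35 over the 10996 genes. RELA and NFKB1 were among the steadier, with IRF1-KO spans of 0.32 and 0.27 log2 CPM. After removal of each library's GC trend the IRF1-KO spans were 1.31 for BIRC3, 1.13 for TNFAIP3, 0.70 for NFKB2 and 0.74 for NFKBIA. The spread within a group has no test here, and these 4 genes were named after their values were seen.

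The same libraries stood at the ends for most of the 10 genes. IRF1-KO replicate 2 was the highest IRF1-KO library for 8 of them, against 36.8% of all tested genes, with NFKB1 and REL as the exceptions. IRF1-KO replicate 3 was the lowest of all 6 libraries for 6 of them (NFKB1, RELB, NFKBIA, NFKBIZ, TNFAIP3 and BIRC3), against 17.7% of all tested genes. The CPM of replicate 2 over replicate 3 was 2.44-fold for BIRC3, 2.17-fold for TNFAIP3, 1.83-fold for NFKB2 and 1.74-fold for NFKBIA, but 1.19-fold for RELA and 1.12-fold for NFKB1. Replicates 2 and 3 were the more deeply sequenced IRF1-KO libraries, with 28258075 and 26323782 counts. Of the WT libraries, replicate 3 was the highest of all 6 libraries for 5 of the 10 genes, against 17.8% of all tested genes. Without IRF1-KO replicate 2, a choice made after the spread was seen, 7 of the 10 genes were lower in both other IRF1-KO libraries than in every WT library, against 12% of all tested genes in the same libraries, and none of the 10 was called (edgeR quasi-likelihood, adjusted p; 0.0888% of all genes were).

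**Figure D4:**
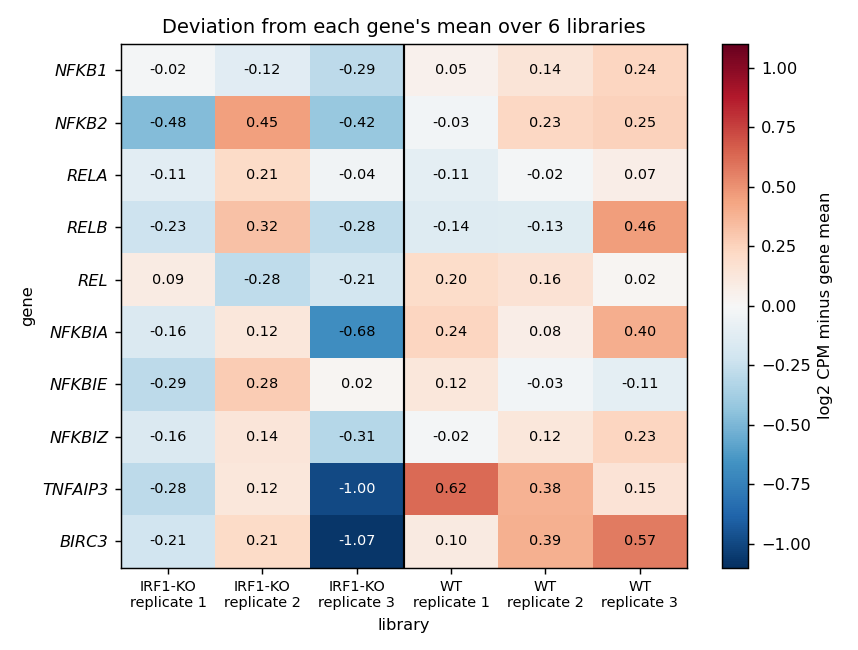
Deviation of log2 CPM from each gene's mean over the 6 libraries; rows are genes, columns are the IRF1-KO libraries (left) and the WT libraries (right), red is above and blue below the mean. IRF1-KO replicate 3 is lowest for BIRC3 (−1.07) and NFKBIA (−0.68), among others, while IRF1-KO replicate 2 is above the mean for 8 of the 10 genes.

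The order of libraries was also counted in the other pathway lists. Of 27 tested targets of NF-kappaB, IRF1-KO replicate 3 was the lowest library for 16 and IRF1-KO replicate 2 the highest IRF1-KO library for 19, against 17.7% and 36.8% of all tested genes. IRF1-KO replicate 3 was also the lowest library for 10 of 19 further inhibitors, 6 of 12 kinases, 4 of 8 ligands and 7 of 21 adaptors and ubiquitin ligases, but for 1 of 17 receptors. The CXC chemokine genes, named after their values were seen, are among these 27 targets and already counted. CXCL8, the gene of interleukin-8, had 146, 238 and 38.7 CPM in IRF1-KO replicates 1 to 3, against 220, 202 and 184 CPM in WT replicates 1 to 3. CXCL5, another neutrophil attractant, had 332, 669 and 79.2 CPM in IRF1-KO replicates 1 to 3, against 286, 472 and 399 CPM in WT replicates 1 to 3. CXCL1, CXCL2 and CXCL3 were likewise lowest in IRF1-KO replicate 3, and replicate 2 exceeded replicate 3 by 2.38-fold (CXCL2) to 8.45-fold (CXCL5) over the 5 chemokines. By group the median log2 fold change of the targets was −0.16. The 27 include the edited gene, IRF1. None of the 27 passed the threshold. At an unadjusted p of 0.05 (edgeR quasi-likelihood) 2 were lower and 2 higher, against 3.75% and 5.39% of all tested genes. The 2 higher genes were IRF1 and MMP9, and DESeq2 called IRF1. MMP9, a matrix protease, had a log2 fold change of 1.93 ± 0.53 (SE) at 2.68, 4.12 and 2.36 CPM in IRF1-KO replicates 1 to 3, against 1.42, 0.653 and 0.336 CPM in WT replicates 1 to 3. CFLAR, encoding the caspase-8 inhibitor c-FLIP, had one of −0.51 ± 0.16, or −0.32 with WT replicate 2 left out.

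The genes that feed signals into the pathway were described from lists of ligands, receptors, adaptors, kinases and further inhibitors. Over these lists and the 27 targets together, 69 of 104 tested genes outside the 10 had negative log2 fold changes (66.3%, median −0.13). Over all tested genes 53.3% were negative (median −0.02). By list the share ran from 57.9% for further inhibitors to 87.5% for ligands. Of the 104 genes 1 was past the threshold, the double-stranded RNA receptor gene TLR3, against 0.127% of all tested genes. TLR3 had 9.14, 10.5 and 10.0 CPM in IRF1-KO replicates 1 to 3, against 35.02, 41.7 and 30.7 CPM in WT replicates 1 to 3, a log2 fold change of −1.85 ± 0.16 (SE; edgeR quasi-likelihood adjusted p = 0.00737). It lost the call without IRF1-KO replicate 1 (adjusted p = 0.0824) or replicate 3 (adjusted p = 0.0659), and the alternatives gave it an adjusted p between 2.25e-19 and 0.0824 (edgeR, DESeq2 and limma-voom). Its log2 fold change without those libraries was −1.78 and −1.86, and each of these 2 fits called 3 genes in all.

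Ligand genes were mostly weak, with 8 of 11 tested, 7 negative and a median log2 fold change of −0.44; TNFSF13B, the gene of BAFF, had one of −0.93 ± 0.30 (SE). TNFSF14, the gene of LIGHT, had 0.549, 1.05 and 0.225 CPM in IRF1-KO replicates 1 to 3, against 1.04, 8.10 and 1.35 CPM in WT replicates 1 to 3. WT replicate 2 stood apart, and the log2 fold change of −2.50 became −0.96 without it. IL1B stood at 0.78 ± 0.57, or at 0.25 with IRF1-KO replicate 2 left out and 1.18 with IRF1-KO replicate 3 left out. Of 17 tested receptors, 10 were negative (median −0.17), with TNFRSF1B, encoding TNF receptor 2, at −0.79 ± 0.26 and TLR1 at 0.42 ± 0.19. Apart from TLR3, none of these ligand and receptor genes was past the threshold.

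By median, adaptors, kinases and further inhibitors lay closer to 0 than ligands, although kinases were near receptors (−0.16 and −0.17). Of 21 adaptors and ubiquitin ligases, 14 were negative (median −0.13). MYD88, the adaptor of Toll-like and interleukin-1 receptors, had 28.1, 33.8 and 30.7 CPM in IRF1-KO replicates 1 to 3, against 43.1, 45.6 and 37.5 CPM in WT replicates 1 to 3 (log2 fold change −0.45 ± 0.13, SE; edgeR quasi-likelihood adjusted p = 0.305). IRAK1, the kinase that MYD88 recruits, had 298, 274 and 310 CPM in IRF1-KO replicates 1 to 3, against 178, 174 and 251 CPM in WT replicates 1 to 3 (0.55 ± 0.16, and 0.32 with the GC offset; adjusted p = 0.312, edgeR quasi-likelihood). Both genes thus separated the groups without a call, in opposite directions. Of all tested genes, 6.75% separated with IRF1-KO lower and 8.03% with IRF1-KO higher. TRAF5 stood at −0.25 ± 0.12 (−0.16 with IRF1-KO replicate 1 left out). Of 12 kinases, 10 were negative (median −0.16), with TBK1 at −0.30 ± 0.12, MAP3K8 at −0.58 ± 0.24 (−0.39 with WT replicate 1 left out) and IKBKB, the catalytic beta subunit of the IkappaB kinase, at −0.42 ± 0.20 (−0.26 with WT replicate 2 left out). Of 19 further inhibitors, 11 were negative (median −0.04), with IRAK3, a brake on MYD88 signalling, at −0.45 ± 0.13, RNF11 at −0.29 ± 0.13 and TNIP2, an A20-binding protein, at 0.35 ± 0.14 (0.17 with the GC offset).

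**Figure D5:**
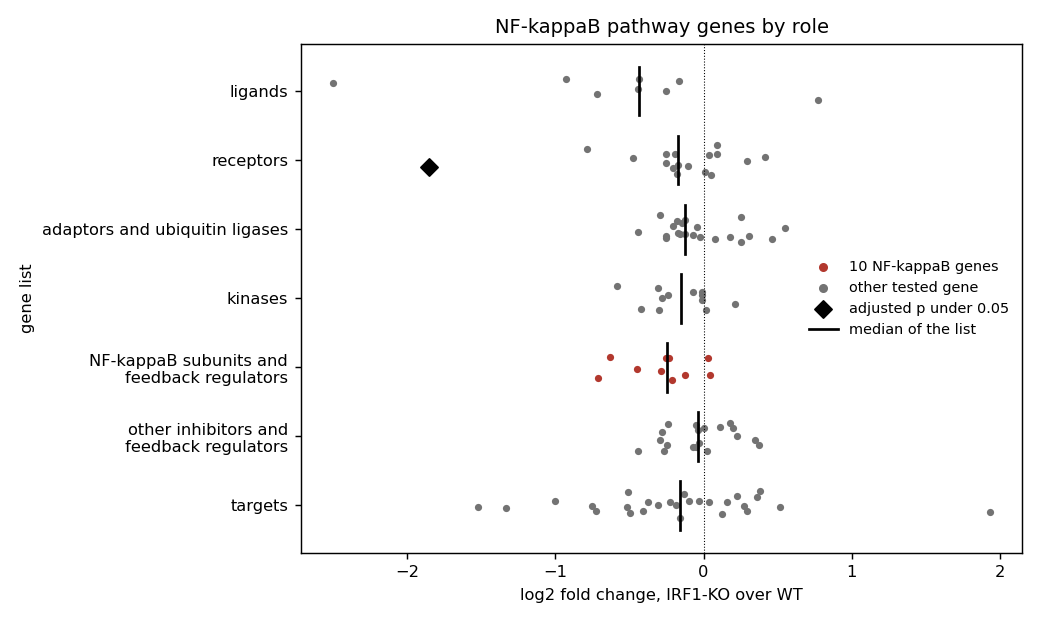
Log2 fold change (IRF1-KO over WT) of each tested pathway gene by role, with a bar at the median of each list. TLR3, the black diamond at −1.85, is the 1 gene with an adjusted p under 0.05, and the 10 NF-kappaB genes (red) lie between −0.72 and 0.04.

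Among 10995 tested genes with at least 5 CPM, the pattern over the 6 libraries most like that of TNFAIP3, the gene with the smallest p of the 10, was that of RNASET2, with a root-mean-square difference of 0.11 in centred log2 CPM, followed by WNK4 (0.16) and CD74 (0.21); the median over all these genes was 0.55. RNASET2 had 35.5, 44.9 and 23.0 CPM in IRF1-KO replicates 1 to 3, against 73.6, 63.5 and 44.1 CPM in WT replicates 1 to 3. For BIRC3, the most variable of the 10 over the 6 libraries, they were FBXO6 (0.16), IRF9 (0.17) and RNF19A (0.19), with a median of 0.57 over all genes. IRF9 had 47.0, 58.7 and 33.4 CPM in IRF1-KO replicates 1 to 3, against 62.5, 89.8 and 85.7 CPM in WT replicates 1 to 3. Its lowest library, IRF1-KO replicate 3, follows from its choice by likeness to BIRC3 and adds no separate instance. These likenesses describe 6 libraries and carry no test.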

How the data were processed

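Whole-number counts for each gene in 6 libraries were deposited, in a table with the columns that featureCounts writes, per the file headers. The submitters' processing notes name featureCounts 0.6.1, edgeR 3.2.2 and GRCh38 (hg38); aligner, annotation and strand setting were not given in the sources used here. Without that setting, antisense RNAs over 95 bases of TNFAIP3 and 5 of RELA cannot be told apart from them. All but 4 of 19402 identifiers had a symbol.

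The fit used edgeR 4.0.16 in R 4.3.3 (filterByExpr, TMM, robust quasi-likelihood F test, two-sided), with Benjamini-Hochberg adjustment over 13388 genes and a threshold of 0.05. Intervals and standard errors are those implied by the F statistic. Log2 CPM had a prior count of 2. Within groups, libraries differed by more than sampling noise. The procedure was tested on simulated data. There the edgeR fit recovered 22% of 1.5-fold, 70% of 2-fold and 98% of 4-fold changes, with 19 false calls. A gene without a call may thus still differ by 1.5-fold, or by 2-fold or more. Neither TNFAIP3 nor BIRC3 was called, yet the interval of each log2 fold change ran down to −1.35, past a 2-fold decrease.

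The genes and lists were chosen with earlier results of these data known. Named were IRF1, the 10 genes, the 3 smallest p-values of each pathway list and the 3 genes most like TNFAIP3 and BIRC3. Alternatives comprised upper-quartile and RLE factors, no filter, a filter of 5 CPM in 3 libraries, DESeq2 1.42.0, limma-voom (limma 3.58.1), a replicate block, a GC offset (spline, 5 degrees of freedom, GENCODE 29 transcripts) with and without the block, and leaving out each library.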

Additional observations from a re-analysis of the deposited data

How the results depend on the processing

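None of the 10 NF-kappaB genes passed an adjusted p of 0.05 in any of the 15 alternatives, in which 0.022% to 2.53% of all genes did. These fits gave 8 to 10 genes with a negative log2 fold change; this count and the next were chosen after seeing the data. Left-out libraries moved the number lower in every IRF1-KO than in every WT library between 2 and 7. Of all tested genes, 10.1% to 14.7% were so placed with 1 library left out. The value of 7 was that without IRF1-KO replicate 2, against 12% of all tested genes. Directions turned for RELA (−0.0595 to 0.13 over left-out libraries, the first without IRF1-KO replicate 2), RELB (−0.35 to 0.13) and NFKBIE (−0.12 to 0.18; −0.11 with the GC offset and −0.10 with the GC offset and replicate block). The cause of these shifts was not tested.

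Over all genes the number past the threshold was 17, against 31 with no filter, 332 with DESeq2, 31 with the replicate block, 11 with the GC offset and replicate block, and 3 to 91 over left-out libraries (3 without replicate 1 or replicate 3 of IRF1-KO, 5 and 91 without WT replicates 2 and 3). Of the other pathway genes 1 was past it, 2 with DESeq2 (TLR3 and the edited gene IRF1) and 0 to 1 over left-out libraries. Same-numbered deviations from group means correlated at −0.02, 0.25 and 0.06 across genes, and IRF1-KO replicate 1 correlated best with WT replicate 3 (0.25). The replicate 2 libraries had the largest of these correlations (0.253, against 0.245). With deviations centred within groups of 3 libraries, these values cannot decide whether same-numbered libraries shared a batch. The block changed no call of the 10 genes. No count of the 10 genes was below 193, and each group had 3 libraries.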
